A study of Rattus norvegicus with 16 samples.

Results

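Insr, Igf1r and Slc2a1 were followed across the RNA-Seq libraries of the fetal rat suprachiasmatic nuclei (SCN), as transcripts through which maternal feeding could be sensed. They were chosen by Ensembl identifier: ENSRNOG00000029986 for Insr (insulin receptor), ENSRNOG00000014187 for Igf1r (insulin-like growth factor 1 receptor) and ENSRNOG00000007284 for Slc2a1 (glucose transporter GLUT1). They are 3 of the 32883 genes in the deposited table, and all 3 were among the 13685 genes that passed the filter on low counts, at least 1.5 CPM (reads of a gene scaled to a common library total) in 3 or more libraries. The table lists identifiers only, so the symbols come from the definition of this gene set.

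The fetuses came from Wistar rats kept in constant darkness after surgery in pregnancy. Group A mothers had sham surgery, so their own SCN clock was intact, and fed ad libitum. Group B mothers had their SCN ablated and were given food in a restricted daily interval, so that feeding was their imposed rhythm. In both groups 1 litter was collected every 3 h from circadian time (CT) 0 to CT21, where CT12 was the onset of activity in Group A and the onset of food access in Group B. Each group thus holds 8 libraries, 1 per time, and each library is the pooled SCN of several fetuses of 1 mother. The labels give embryonic day 17 and 8 fetuses per pool, whereas the study's methods give a later embryonic day and a varying number of fetuses in Group B. The lesion and the feeding regime were applied together in Group B, and their parts in any difference cannot be told apart. Within a group, circadian time and litter are one unit. The error of every comparison is thus the scatter between litters, with no repeat of a time within a group.

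Insr and Igf1r encode related receptor tyrosine kinases that signal through insulin receptor substrates, PI3K and AKT. Insulin is the main ligand of the former, and IGF1 and IGF2 those of the latter, which is a main driver of fetal growth. The receptors can also join as hybrids. Maternal insulin hardly crosses the placenta, while maternal glucose does, through GLUT1 among other carriers. In the brain, GLUT1 carries glucose across the endothelium of the blood-brain barrier and into glia, and its transcript is a known target of hypoxia-inducible factor.

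Promoter sequence is shown to place each gene in the genome, and the stretches below hold matches to the motif letters that were searched. For Igf1r and Insr only a part of the searched window is printed. They are RefSeq sequences on assembly GRCr8, matched by symbol for 3 of 3 genes, whereas the counts were made on rn6. Capitals mark the letters found, and positions count upstream from the first base of the annotated transcript that was used. For Igf1r and Insr another annotated transcript starts further upstream, so their positions hold for the start used here only.
Slc2a1, chr5:138002272-138002521, plus strand, the 250 bases before the start: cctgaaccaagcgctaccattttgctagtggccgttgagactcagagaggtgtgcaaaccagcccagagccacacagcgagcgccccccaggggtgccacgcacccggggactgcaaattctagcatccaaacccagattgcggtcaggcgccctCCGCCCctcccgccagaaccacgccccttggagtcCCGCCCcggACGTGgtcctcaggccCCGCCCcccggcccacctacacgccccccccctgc
Igf1r, chr1:130959954-130959983, plus strand, positions -43 to -14: tgtgcgcgcgggCACGTGtgcgcggccccg
Insr, chr12:6128890-6128919, minus strand, positions -116 to -87: agcTGACGggccgcgtTGTTTACtggccgg
The Slc2a1 stretch holds the core of the hypoxia response element, ACGTG, at -51 and the GC box GGGCGG, read here on the other strand, at -95, -60 and -35. The Igf1r stretch holds the E-box CACGTG, the letters bound by the circadian CLOCK and BMAL1 proteins, at -31. This E-box contains ACGTG on both strands. Outside the printed stretch, Igf1r also had ACGTG at -137, on the other strand, and the GC box GGGCGG at -184. The Insr stretch holds the cAMP response half-site TGACG at -113 and the forkhead motif TGTTTAC, read by FOXO factors, at -100. All 5 motifs were searched on both strands in 33469 RefSeq promoters, from 250 bases before to 50 after the start. CACGTG was found in 6.42% of them, ACGTG in 19.3%, TGTTTAC in 3.78%, TGACG in 21.2% and GGGCGG in 33.1%. In the same windows the GC content was 68.3% for Slc2a1, 78.0% for Igf1r and 71.3% for Insr, beside a median of 51.7% over all promoters. A match describes these letters and does not show that a factor was bound.

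Library totals ran from 10746066 to 12781966 counts in Group A. Group B ran from 10047500 to 18738585, the deepest being CT9. These totals gave 1113 to 2223 counts for Insr, 1315 to 2606 for Igf1r and 668 to 1226 for Slc2a1. Scaling factors by the trimmed mean of M values (TMM) lay between 0.977 and 1.03. The mean correlation of a library with the others of its group was lowest, at 0.980, for CT3 of Group B. Whole tissue was sequenced, so fewer cells of a type and less RNA per cell cannot be told apart, and marker genes of cell types were not analysed here.

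Slc2a1 had the largest 24-h range of the 3 transcripts in the fit common to both groups. In Group A its level, in CPM of the library total, was 79.6 at CT0, 73.4 at CT3, 82.0 at CT6, 75.8 at CT9, 69.0 at CT12, 64.0 at CT15, 61.2 at CT18 and 81.8 at CT21. In Group B it was 85.6 at CT0, 82.6 at CT3, 77.8 at CT6, 65.4 at CT9, 56.0 at CT12, 70.2 at CT15, 70.7 at CT18 and 63.2 at CT21. The lowest library thus came at CT18 in Group A and at CT12 in Group B. Of the 8 highest of all 16 libraries, 7 were from the subjective day (CT0 to CT9), the exception being CT21 of Group A, and the day library outside them was CT9 of Group B.

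**Figure D1:**
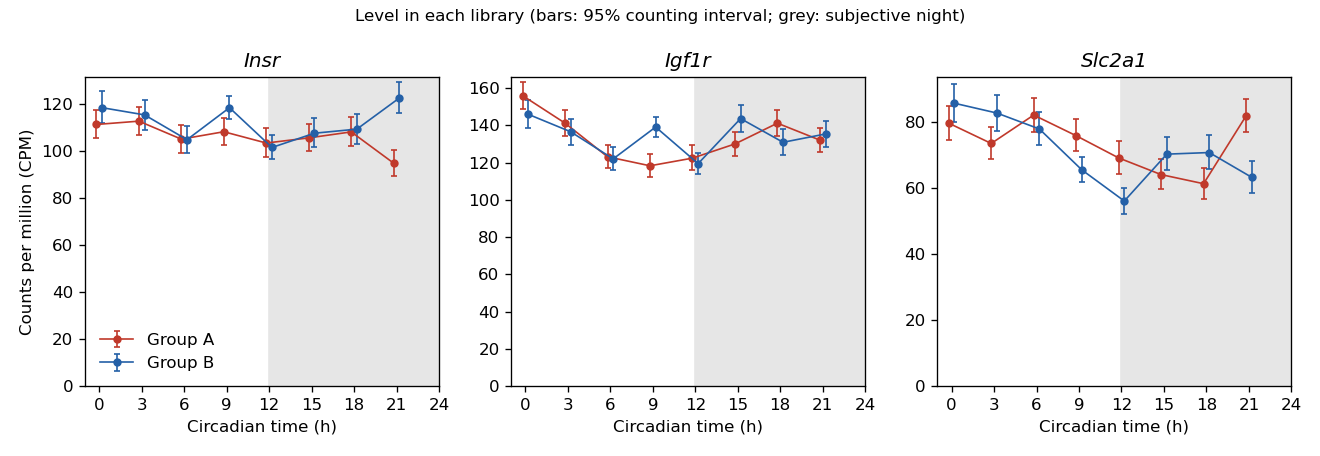
Level of Insr, Igf1r and Slc2a1 in CPM (vertical axes, from 0) against circadian time in hours, with 1 point per library, Group A in red and Group B in blue, exact 95% Poisson counting intervals as bars and the subjective night (CT12 to CT21) shaded. Slc2a1 ranged from 56.0 to 85.6 CPM, and the groups lay furthest apart at CT21 for Insr and Slc2a1.

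Over CT12 to CT21 the mean Slc2a1 level was 69.0 ± 9.09 CPM in Group A (SD, n = 4), beside 77.7 ± 3.84 over CT0 to CT9 (n = 4). In Group B the night mean was 65.0 ± 6.91 CPM (SD, n = 4) and the day mean 77.9 ± 8.89 (n = 4). Day and night libraries overlapped in both groups, with day values of 73.4 to 82.0 and night values of 61.2 to 81.8 CPM in Group A. In Group B they were 65.4 to 85.6 against 56.0 to 70.7 CPM. With the libraries of both groups in one fit, the night minus day difference was -0.21 on the log2 scale (SE 0.065, 95% interval -0.35 to -0.08), a night-to-day ratio of 0.862. This had an unadjusted p of 0.00352 and did not pass after Benjamini-Hochberg adjustment over all genes (adjusted p = 0.160, edgeR quasi-likelihood test). At that unadjusted threshold of 0.05, 5.73% of all tested genes were lower at night, and 0.358% of genes passed the adjusted one in either direction. Slc2a1 is 1 of the former and not of the latter. Fitted within a group, the difference was -0.17 in Group A (95% interval -0.37 to 0.02, adjusted p = 0.682) and -0.25 in the Group B libraries (-0.45 to -0.06, adjusted p = 0.421). The exact two-sided permutation test of 4 against 4 libraries gave p = 0.114 in Group A and p = 0.0857 in Group B, where the smallest possible value is 0.0286. The difference between these differences was -0.08 (95% interval -0.36 to 0.20, edgeR adjusted p = 0.997), so a group effect of either sign within that interval was not resolved.

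A 24-h cosine common to both groups placed the peak of Slc2a1 at 2.18 ± 0.883 h (SE) and its trough at 14.2 h. The fitted peak-to-trough difference was 0.36 ± 0.083 on the log2 scale (SE), a 1.28-fold range. The F test of this cosine gave an unadjusted p of 0.00146, the 163rd lowest of 13685 genes, and an adjusted p of 0.122 (edgeR quasi-likelihood test), so it did not pass. The call depended on the tool, because the DESeq2 likelihood ratio test of the same model gave an adjusted p of 0.0153 with a peak-to-trough difference of 0.36. By edgeR, 0.343% of all tested genes passed the common cosine at an adjusted p below 0.05, and by DESeq2 2.91% of the genes for which it gave an adjusted p. The separate fits gave 0.32 ± 0.12 with a peak at 2.98 ± 1.42 h in Group A and 0.41 ± 0.12 with a peak at 1.49 ± 1.12 h in Group B. The cosines of the groups were not shown to differ (adjusted p = 0.937, edgeR), and the peaks lay within their errors of each other. With any 1 library left out, the common difference stayed between 0.309 (without CT12 of Group B) and 0.414 (without CT3 of Group A), with unadjusted p from 0.000469 to 0.00586 and the peak from 1.61 to 2.60 h.

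Slc2a1 also moved with the first principal component of all genes, which held 24.4% of the variance between libraries. Across the 16 libraries r was 0.57 (permutation p = 0.0227, adjusted over 3 genes 0.0681) and Spearman's rho 0.54 (permutation p = 0.0338, adjusted 0.102). Without the 2 libraries farthest from the median of that component, r was 0.40. With that component as a covariate, an alternative chosen after seeing the data, the peak-to-trough difference of Slc2a1 was 0.31 with an unadjusted p of 0.00313 and an edgeR adjusted p of 0.132. Against library depth, r was -0.33 (permutation p = 0.212, adjusted 0.637) and rho -0.20 (permutation p = 0.448, adjusted 0.448). Without the 2 libraries farthest from the median depth, r was 0.09.

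Igf1r was highest at CT0 in both groups. In Group A it stood at 155.9 CPM at CT0, 141.2 at CT3, 123.1 at CT6, 118.3 at CT9, 122.4 at CT12, 130.0 at CT15, 141.1 at CT18 and 132.1 at CT21. In Group B the levels were 145.9 CPM at CT0, 136.5 at CT3, 122.0 at CT6, 139.1 at CT9, 119.4 at CT12, 143.6 at CT15, 130.9 at CT18 and 135.3 at CT21. Group A thus had its lowest library at CT9 and stood higher in the libraries after it, while Group B alternated, with low libraries at CT6 and CT12 on either side of a high one at CT9. The largest gap between the groups at a time was 0.23 on the log2 scale, higher in Group B, at CT9.

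The common cosine of Igf1r had a peak-to-trough difference of 0.22 ± 0.069 on the log2 scale (SE), a 1.16-fold range, with a peak at 22.3 ± 1.22 h and a trough at 10.3 h. Its unadjusted p was 0.0186 and its adjusted p 0.292 (edgeR quasi-likelihood test), and it did not pass by DESeq2 either (adjusted p = 0.183). In Group A the difference was 0.32 ± 0.098 (edgeR adjusted p = 0.60) and in Group B 0.12 ± 0.098 (adjusted p = 0.817). The test of the difference between these cosines gave an adjusted p of 0.891, so a rhythm in one group and not the other was not shown. Single libraries moved these values both ways. The common difference was 0.167 without CT0 of Group A (unadjusted p = 0.0673 in the edgeR fit) and 0.280 without CT9 of Group B (unadjusted p = 0.00247). The Group A difference was 0.227 without CT0 of that group (unadjusted p = 0.129 in the edgeR fit) and 0.431 without its CT21 (unadjusted p = 0.00223). The Group B difference was 0.0694 without CT12 of that group and 0.240 without its CT9. Night and day did not separate Igf1r, with 134.6 ± 17.3 CPM by day and 131.4 ± 7.72 by night in Group A (SD, n = 4 each). The Group B values were 135.9 ± 10.1 and 132.3 ± 10.1 CPM (SD, n = 4 each). The night minus day difference was -0.04 on the log2 scale (95% interval -0.16 to 0.08, edgeR adjusted p = 0.858), and the peak and trough of the cosine lie near the borders of these 2 phases.

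Insr varied least of the 3 transcripts. In Group A its level was 111.5 CPM at CT0, 112.9 at CT3, 105.2 at CT6, 108.4 at CT9, 103.6 at CT12, 105.8 at CT15, 108.3 at CT18 and 94.98 at CT21. In Group B it was 118.6 CPM at CT0, 115.6 at CT3, 105.0 at CT6, 118.6 at CT9, 101.7 at CT12, 107.8 at CT15, 109.5 at CT18 and 122.8 at CT21. CT21 thus held the lowest library of all in Group A and the highest of all in Group B. The counting intervals of this pair did not overlap, at 89.7 to 100.5 CPM for Group A against 116.2 to 129.6 for Group B. Slc2a1 had the opposite order at the same time, with 76.9 to 86.9 CPM for Group A against 58.5 to 68.2 for Group B. The intervals cover counting error only, and a single litter per group stands behind each, so no test of this time could be made.

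The common cosine of Insr had a peak-to-trough difference of 0.10 ± 0.064 on the log2 scale (SE, edgeR adjusted p = 0.716; DESeq2 adjusted p = 0.768). It was 0.08 ± 0.092 in Group A (edgeR adjusted p = 0.941) and 0.16 ± 0.092 in Group B (adjusted p = 0.672), with a difference between the cosines at an adjusted p of 0.918. The Group A value ranged from 0.0473 without its CT3 library to 0.132 without its CT18 library. The Group B value ranged from 0.118 without its CT12 library to 0.286 without its CT9 library (unadjusted p = 0.0232 in the edgeR fit). The night minus day difference was -0.07 (95% interval -0.16 to 0.02, edgeR adjusted p = 0.580), from 109.5 ± 3.41 to 103.2 ± 5.79 CPM in Group A (SD, n = 4 each). Group B went from 114.5 ± 6.47 to 110.4 ± 8.88 CPM (SD, n = 4 each).

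The comparison of groups over all times asks whether the lesion with restricted feeding changed the level of these transcripts. Insr averaged 106.3 ± 5.55 CPM in Group A and, for the Group B libraries, 112.4 ± 7.51 (SD, n = 8 each), and was higher in Group B at 6 of 8 times. The difference, Group B minus Group A, was 0.07 on the log2 scale (95% interval -0.02 to 0.17, edgeR adjusted p = 0.885). Without the CT21 library of Group A it was 0.0495. Igf1r averaged 133.0 ± 12.5 CPM in Group A and 134.1 ± 9.52 for Group B, with 3 of 8 times higher in Group B. Its difference was 0.0043 on the log2 scale (95% interval -0.12 to 0.13, edgeR adjusted p = 0.993), and its sign changed when single libraries were left out. Slc2a1 averaged 73.4 ± 7.95 CPM in Group A and 71.4 ± 10.1 in Group B and was higher in Group B at 4 of 8 times. Its difference was -0.05 (95% interval -0.21 to 0.12, edgeR adjusted p = 0.960), and -0.0053 without the CT12 library of Group B. Exact two-sided permutation tests of 8 against 8 libraries gave p = 0.153 for Insr, 0.913 for Igf1r and 0.588 for Slc2a1. None of the 3 passed at an unadjusted p below 0.05 by edgeR or by DESeq2. Of all tested genes, 5.81% did by edgeR and 0% passed the adjusted threshold. At such a share, the lack of a call among 3 genes does not set them apart from other genes.

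**Figure D2:**
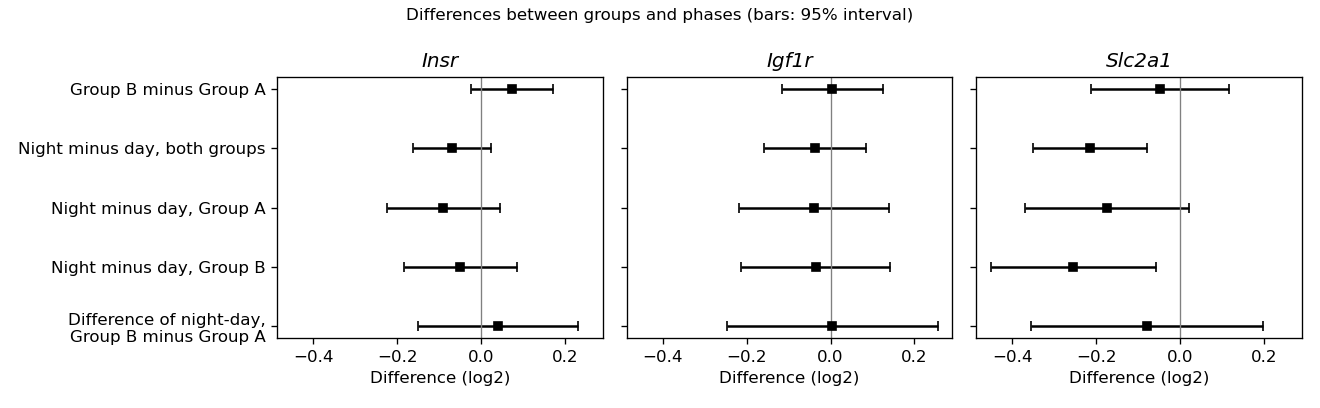
Fitted differences of Insr, Igf1r and Slc2a1 on the log2 scale (horizontal axes) between groups, between subjective night and day, and between the night-day differences of the groups, with squares for the edgeR estimate and bars for its 95% interval. The intervals of Insr and Igf1r all include 0, and those of Slc2a1 lie below 0 for night minus day over both groups (-0.35 to -0.08) and in Group B (-0.45 to -0.06).

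Across these comparisons, 0 of the 3 transcripts passed an adjusted p below 0.05 in any edgeR test. Over all genes, 0.00731% passed it for the Group A cosine, 0.095% for the Group B cosine, 0.00731% for night minus day in Group B and 0% for night minus day in Group A or for either difference between groups. At an unadjusted p below 0.05, the common cosine held for Igf1r and Slc2a1 (12% of all genes), the Group A cosine for Igf1r (7.45%) and the Group B cosine for Slc2a1 (10.7%). Night minus day held at that threshold for Slc2a1 over both groups (12%) and in Group B (8.79%). No member was at that threshold for night minus day in Group A (7.98% of all genes), for the difference of the cosines (6.11%) or for the difference of the night-day contrasts (4.16%). By DESeq2 1 test passed after adjustment, the common cosine of Slc2a1.

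Model selection, which the study used for rhythms, divides a weight of 1 among 5 models by the Bayes information criterion (BICW) and assigns a transcript where a weight exceeds 0.5. It gives no p-value. Slc2a1 was assigned to ABsync, a rhythm shared by the groups, with a BICW of 0.852, as were 5.03% of all tested genes. Its fitted range of 0.36 on the log2 scale lay near the median of 0.33 over the 689 ABsync genes, of which 76 had a higher weight. These genes were assigned by a cosine fitted to the same libraries, so the likeness of the ranges is a description only. The weight stayed between 0.669 and 0.887 with any 1 library left out, and was 0.826 with Gaussian fits to CPM. Igf1r was not assigned, as 18.8% of genes were not, because its weight was split between Arhy, a rhythm in Group A only (0.467; 2.4% of genes were assigned there), and ABsync (0.385). Without CT9 of Group B the ABsync weight of Igf1r became 0.745, and without CT21 of Group A its Arhy weight became 0.718. Without CT0 of Group A the leading model of Igf1r was the absence of a rhythm, at 0.397. Insr was assigned to no rhythm with a BICW of 0.659, as were 69.2% of genes, and was left unassigned by the Gaussian fits (0.442). Without CT9 of Group B, however, Insr went to Brhy, a rhythm in Group B only that took 4.3% of genes, at 0.532, and without CT21 of Group A it was unassigned, at 0.474.

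**Figure D3:**
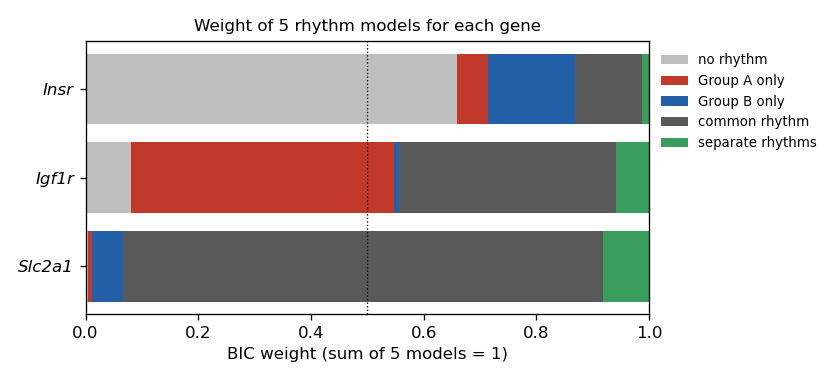
Weight of the 5 rhythm models (horizontal axis, weights of a gene sum to 1) for Insr, Igf1r and Slc2a1 as stacked bars, with the threshold of 0.5 as a dotted line. The common rhythm holds 0.852 of the weight of Slc2a1, no rhythm holds 0.659 of that of Insr, and no model of Igf1r exceeds 0.467.

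**Figure D4:**
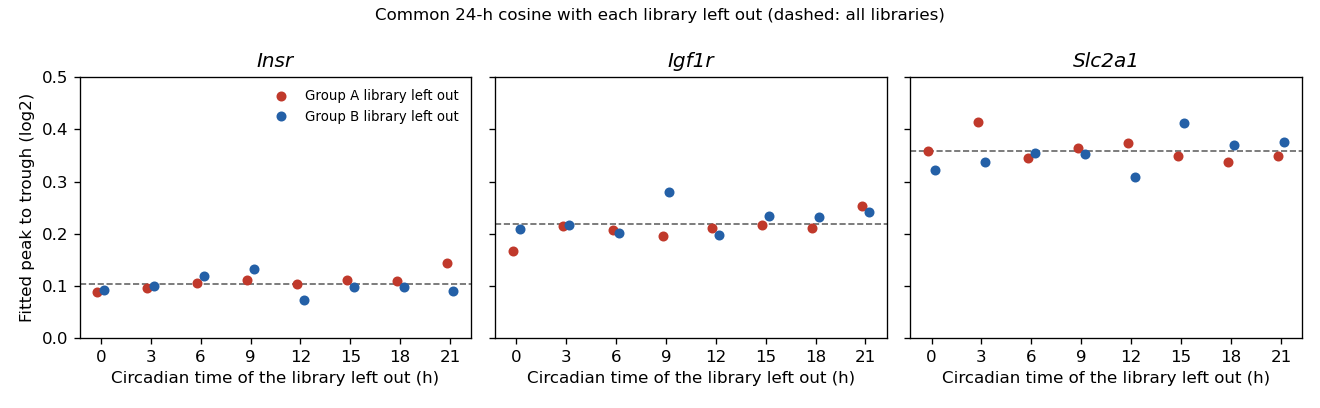
Peak-to-trough difference of the common 24-h cosine on the log2 scale (vertical axis) when each of the 16 libraries is left out, placed by the circadian time of that library in hours, in red for Group A and in blue for Group B, with the value over all libraries as a dashed line. Slc2a1 stays between 0.309 and 0.414, Igf1r between 0.167 and 0.280 and Insr between 0.0738 and 0.143.

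The spread between litters was larger than counting error in all 3 transcripts. Over the 16 libraries the coefficient of variation was 6.51% for Insr, where counting alone gives 2.77%, 8.06% for Igf1r (2.51%) and 12.2% for Slc2a1 (3.41%). The ratio of the highest to the lowest library was 1.29 for Insr, 1.32 for Igf1r and 1.53 for Slc2a1. The common cosine took up 54.5% of the variance of the log2 level for Slc2a1, 41.2% for Igf1r and 14.1% for Insr. Group took up 2.11%, 0.0877% and 14.0%. Any term takes up some variance by chance, and the cosine has more terms than group. These shares are thus a description, and the 2 sets are not on an equal footing. The biological coefficient of variation that edgeR estimated with group as the only term was 11.1% for Slc2a1, and 93.0% of the 2300 genes within 1.5-fold of its level had a lower one. It was 8.39% for Igf1r, above 87.6% of 1608 such genes, and 6.79% for Insr, above 59.4% of 1806. In the order of the 16 libraries by level, the counting intervals overlapped in 15 of 15 neighbouring pairs of each gene. The order of neighbours is thus not resolved. Neighbours in a sorted list lie close together, so their overlap says nothing about the spread as a whole. By the mean of both groups, CT0 was the highest time and CT12 the lowest for each of the 3 transcripts.

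The receptors were compared with each other and with the transporter across libraries. Between Insr and Igf1r, r was 0.57 over 16 libraries (permutation p = 0.0194, adjusted over 3 pairs 0.0582) and rho 0.60 (permutation p = 0.0156, adjusted 0.0469). It rose to r = 0.74 without the 2 libraries farthest from the median of Insr. Within groups r was 0.50 in Group A (exact permutation p = 0.205, adjusted 0.616) and 0.75 in Group B (exact permutation p = 0.0419, adjusted 0.126), with n = 8 each. On CPM by library total, r over all libraries was 0.50 (permutation p = 0.0456, adjusted 0.137) and rho 0.59 (permutation p = 0.0192, adjusted 0.0577), so the call by rho was lost with that scaling. Between Insr and Slc2a1, r was 0.02 (permutation p = 0.933, adjusted 0.933) and rho 0.08 (permutation p = 0.763, adjusted 0.763). Without the 2 libraries farthest from the median of Insr, r was 0.43. Libraries extreme in Slc2a1 were not left out in this way. Between Igf1r and Slc2a1, r was 0.21 (permutation p = 0.433, adjusted 0.650) and rho 0.19 (permutation p = 0.475, adjusted 0.713). Without the 2 libraries farthest from the median of Igf1r, r was 0.14. That the first of these correlations exceeds the others was not tested. Against library depth, Insr had r = -0.04 (permutation p = 0.878, adjusted over 3 genes 0.878) and rho -0.43 (permutation p = 0.0968, adjusted 0.288). Igf1r had r = -0.14 (permutation p = 0.614, adjusted 0.878) and rho -0.34 (permutation p = 0.192, adjusted 0.288). Without the 2 libraries farthest from the median depth, r was -0.68 for Insr and -0.43 for Igf1r. A part of depth in the correlation of the receptors was not tested.

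Ratios of counts within a library, which no scaling of libraries changes, were compared after seeing the data. The log2 ratio of Slc2a1 to Insr was highest at CT21 of Group A (-0.22) and lowest at CT21 of Group B (-0.96). The ratio of Slc2a1 to Igf1r was lower at night by -0.19 on the log2 scale over both groups (exact permutation p = 0.0558). None of the 12 comparisons of ratios passed adjustment, the lowest adjusted p being 0.473.

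Likeness to all genes with a mean of at least 5 CPM was ranked by r over the 16 libraries, as a description. Of 11086 genes, ENSRNOG00000000307 followed Slc2a1 most closely (r = 0.853), ENSRNOG00000053240 followed Igf1r (r = 0.906) and ENSRNOG00000059113 followed Insr (r = 0.834). The highest r of so many genes over 16 libraries is high by selection alone, and its level by chance was not computed. Igf1r ranked 88th for Insr and Insr 281st for Igf1r, while Slc2a1 ranked 5023rd for Insr and 2608th for Igf1r. These libraries share litters and depth across all genes, and the identifiers are not paired with symbols in the tables used here.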

How the data were processed

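The data are 16 RNA-Seq libraries of fetal SCN pools, 8 per group. The deposited values are whole-number counts of reads per Ensembl gene that the authors made without normalization; the submitters' notes name HISAT2 2.1.0, Salmon, StringTie and rn6. The annotation version and strand setting of the counting are not given in the sources used here, so reads of antisense genes may be included. Groups, times and columns were matched by the labels, which give no batch.

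The filter asked for 1.5 CPM or more in 3 or more libraries and kept 13685 of 32883 genes. All tests were edgeR 4.0.16 quasi-likelihood fits in R 4.3.3 over all 16 libraries, with TMM scaling and Benjamini-Hochberg adjustment over all genes kept. Group was tested with no time term. Rhythms were tested by an F test of the sine and cosine terms with a period of 24 h, and CT12 to CT21 were compared with CT0 to CT9. The members, lists, comparisons and tests were chosen with earlier results of these data known. No p of the edgeR or DESeq2 tests was adjusted over the members alone. Correlations were adjusted over their 3 pairs or 3 genes only, and ratios of counts over their 12 comparisons. Model selection followed dryR, with DESeq2 1.42.0 size factors and dispersions, 5 negative binomial models and a BICW threshold of 0.5. Correlations used log2(TMM CPM + 0.5), and permutation tests were run in SciPy 1.17.1. Levels printed are CPM of the library total, with exact 95% Poisson intervals that cover counting error only. The depth of 10047500 to 18738585 counts leaves a counting error below the spread between litters for each member. The scripts were tested on simulated data.

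Alternatives were DESeq2 size factors, no filter, at least 10 counts in every library, DESeq2 tests, each library left out, circadian time as a block, cosines as covariates, the times of food access (CT12 to CT18) in place of the subjective night, Gaussian fits, other scalings of the correlations and, after seeing the data, the first principal component and ratios of counts. The rule for named genes was the 3 members, members of pathway lists that passed a test, and the 3 genes most like each member, of which only the first is printed. Identifiers could not be paired with symbols from the tables used here, so pathway lists, cell type markers and lengths per gene were not analysed here, and levels of different genes were not compared. Promoters are from RefSeq (GRCr8).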

Additional observations from a re-analysis of the deposited data

How the results depend on the processing

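All alternatives outside those that leave out a library kept the direction of the members' differences and their side of the adjusted threshold, with the exceptions named here. By DESeq2 the common cosine of Slc2a1 passed (0.36, adjusted p = 0.0153), and DESeq2 called 298 genes for the common cosine, 28 for Group A, 133 for Group B and 4 for the difference of cosines, and 213, 20, 73 and 1 for night minus day over both groups, in Group A, in Group B and for their difference. Without a filter on low counts the edgeR calls were 3 genes for the Group A cosine, 21 for the Group B cosine, and 111, 22, 19 and 2 for the same night-day contrasts, and the difference of the night-day contrast of Igf1r was -0.0018. With the first principal component as a covariate the common cosine called 135 genes. With the times of food access in place of the night, 0 genes passed over both groups and 0 in Group B, and the difference between groups turned to -0.12 for Insr, -0.023 for Igf1r and 0.081 for Slc2a1. On those times Slc2a1 was lower by -0.28 in Group A (unadjusted p = 0.00905, adjusted p = 0.890 by edgeR) and by -0.20 in Group B (unadjusted p = 0.0534, adjusted p = 0.988). The Gaussian fits gave Insr a weight of 0.442 for no rhythm. Except where the test is another one, the cause of these changes was not tested.

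With circadian time as a block, pairing the groups at each time, the difference between groups was 0.07 for Insr (edgeR adjusted p = 0.825), 0.0078 for Igf1r (adjusted p = 0.989) and -0.05 for Slc2a1 (adjusted p = 0.925), with 0 genes called. The libraries of a time share only that time, and no call changed.

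With each library left out in turn, no member passed the adjusted threshold in any edgeR test. The difference between groups ranged over 0.0495 to 0.0917 for Insr, -0.0198 to 0.0451 for Igf1r, where it turned negative in 8 of the 16 cases, and -0.0896 to -0.0053 for Slc2a1, with 0 genes called. The calls ranged from 1 gene (without CT3 of Group A) to 92 (without CT15 of Group A) for the common cosine, from 0 to 3 for the Group A cosine, from 1 to 24 for the Group B cosine and from 0 to 2 for their difference. Night minus day called 4 genes (without CT18 of Group A) to 103 (without CT9 of Group A) over both groups, 0 to 5 in Group A, 0 to 2 in Group B and 0 for the difference. Over both groups it was -0.0628 to 0.0033 for Igf1r, above 0 only without CT0 of Group A, and -0.256 to -0.181 for Slc2a1. For Insr it was -0.0987 to -0.0466 over both groups. Its unadjusted p in the edgeR fit was below 0.05 in 2 of the 16 cases, the lowest being 0.0278 without CT21 of Group B. For Igf1r it was -0.0973 to 0.0492 in Group A, and -0.0903 to 0.0108 within Group B. The difference between groups of this contrast was -0.0185 to 0.0780 for Insr, -0.0850 to 0.0649 for Igf1r and -0.151 to 0.0102 for Slc2a1, above 0 only without CT21 of Group A. The Group B cosine of Slc2a1 was 0.310 without CT12 of that group (unadjusted p = 0.0851 in the edgeR fit). The weight of no rhythm for Insr was 0.279 to 0.761, that of Arhy for Igf1r 0.162 to 0.718, above 0.5 without CT21 of Group A or without CT0, CT6 or CT12 of Group B.

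With 1 litter per group and time, a difference at a single time cannot be tested. The tests draw on several litters, but a single library can still move a call, as the fits with 1 library left out show. A pass would thus not establish that a difference recurs over litters. Counting error, at most a few percent of a level, was below the spread between litters for each member.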
